A study of Mus musculus with 12 samples.

Results

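The genes described here are 34 genes of glycolysis and of the use of pyruvate, taken by symbol as rows of count tables that hold 49997 genes each. They take in 2 glucose transporters, 3 hexokinases, 7 genes of upper glycolysis, 7 of lower glycolysis, 2 lactate dehydrogenases, 2 lactate transporters, 5 genes of the pyruvate dehydrogenase complex and its kinases, and 6 regulators of the flow through the pathway. All 34 symbols were found. They were chosen by name and function, with earlier results of these data known. The study sequenced poly(A) RNA of sorted mouse thymocytes in 4 groups of 3 libraries: CD4 thymocytes with an induced knockout (KO) of Satb1, CD4 thymocytes of wild-type (WT) thymus, double-positive (DP) thymocytes with the knockout, and DP thymocytes of WT thymus. SATB1 binds the genome in the nucleus of T cells and shapes how chromatin is folded. Tamoxifen is the labelled treatment of all 12 libraries, the WT ones too, and within each group the libraries carry batch numbers that equal their replicate numbers. The sources used here do not give the age and strain of the mice, the driver of the inducible deletion, the time after tamoxifen, the sort gates or any pooling of mice.

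Glycolysis splits glucose into pyruvate in the cytosol. Lactate dehydrogenase turns pyruvate into lactate, which monocarboxylate transporters carry across the membrane, while the pyruvate dehydrogenase complex feeds pyruvate into the tricarboxylic acid cycle and is switched off by its kinases. Most steps exist as several isozymes encoded by separate genes, and T cells change both the amount and the mix of these isozymes as they divide, rest or are activated. DP thymocytes carry both co-receptors and include small resting cells and dividing blasts. CD4 thymocytes come later, after selection, and no longer express CD8.

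Levels are given as CPM, which are the deposited read counts scaled to a common adjusted library total. Depth was lowest in DP WT replicate 3, with 22790504 counts, and highest in CD4 KO replicate 2, with 62422640. A count of 3 corresponded to between 0.0465 and 0.134 CPM, a limit of detection that covers counting error only. A gene was called when edgeR's quasi-likelihood test over all tested genes gave a Benjamini-Hochberg adjusted p under 0.05, and every adjusted p below comes from that test. Nothing in the labels ties the libraries of a group to separate mice. The p-values therefore measure only how far these libraries spread, which may be technical. Satb1 itself was at 1481, 1545 and 1469.7 CPM in CD4 KO against 3513, 3299 and 3001 CPM in CD4 WT, and at 2496, 2874 and 2455 CPM in DP KO against 3885, 3831 and 3871 CPM in DP WT, with no overlap in either cell type and with transcript left in every KO library. The 5 T lineage markers summed to between 2056 and 2233 CPM in CD4 KO and between 2844 and 3028 CPM in CD4 WT. In DP they summed to between 2024 and 2236 CPM in DP KO and between 2804 and 3446 CPM in DP WT. In each cell type 4 of the 5 genes were lower in KO. Xist was at 0.844 and 0.273 CPM in DP WT replicates 1 and 2 and between 189.6 and 601 CPM in the other 10 libraries, while Ddx3y, a Y-linked gene, was at 40.3 CPM or more in all of them, so most libraries held RNA of both sexes. Results that rest on DP WT were therefore also computed with replicate 3 as the lone DP WT library.

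Between the KO and WT libraries, 24 of the 34 genes were called in at least 1 cell type, in both directions. For comparison, 51.6% of all tested genes were called in at least 1 of the same comparisons. In CD4 thymocytes 6 were higher and 13 lower in KO than in WT, of 34 tested, against a background over all tested genes of 20.9% called higher and 18.6% called lower. In DP thymocytes 8 were higher and 7 lower, of 33 tested, against 16.7% and 14.1% of all tested genes. Hk3, too low in DP to be tested there, is the missing one. The median log2 fold change of the members was -0.038 in CD4 and 0.054 in DP, close to the medians of all genes, 0.0022 and 0.0072. The KO and WT libraries of the called members did not overlap, in 19 of 19 calls in CD4 and 15 of 15 in DP. The same was so for 98.9% and 98.6% of all called genes, and for 51.9% and 45.3% of all tested genes. Groups that do not overlap must differ with the same sign within each of the 3 batches. The called members did so, and this adds nothing to the lack of overlap. Of all called genes, 99.8% in CD4 and 99.1% in DP had the same sign in the 3 batches.

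**Figure D1:**
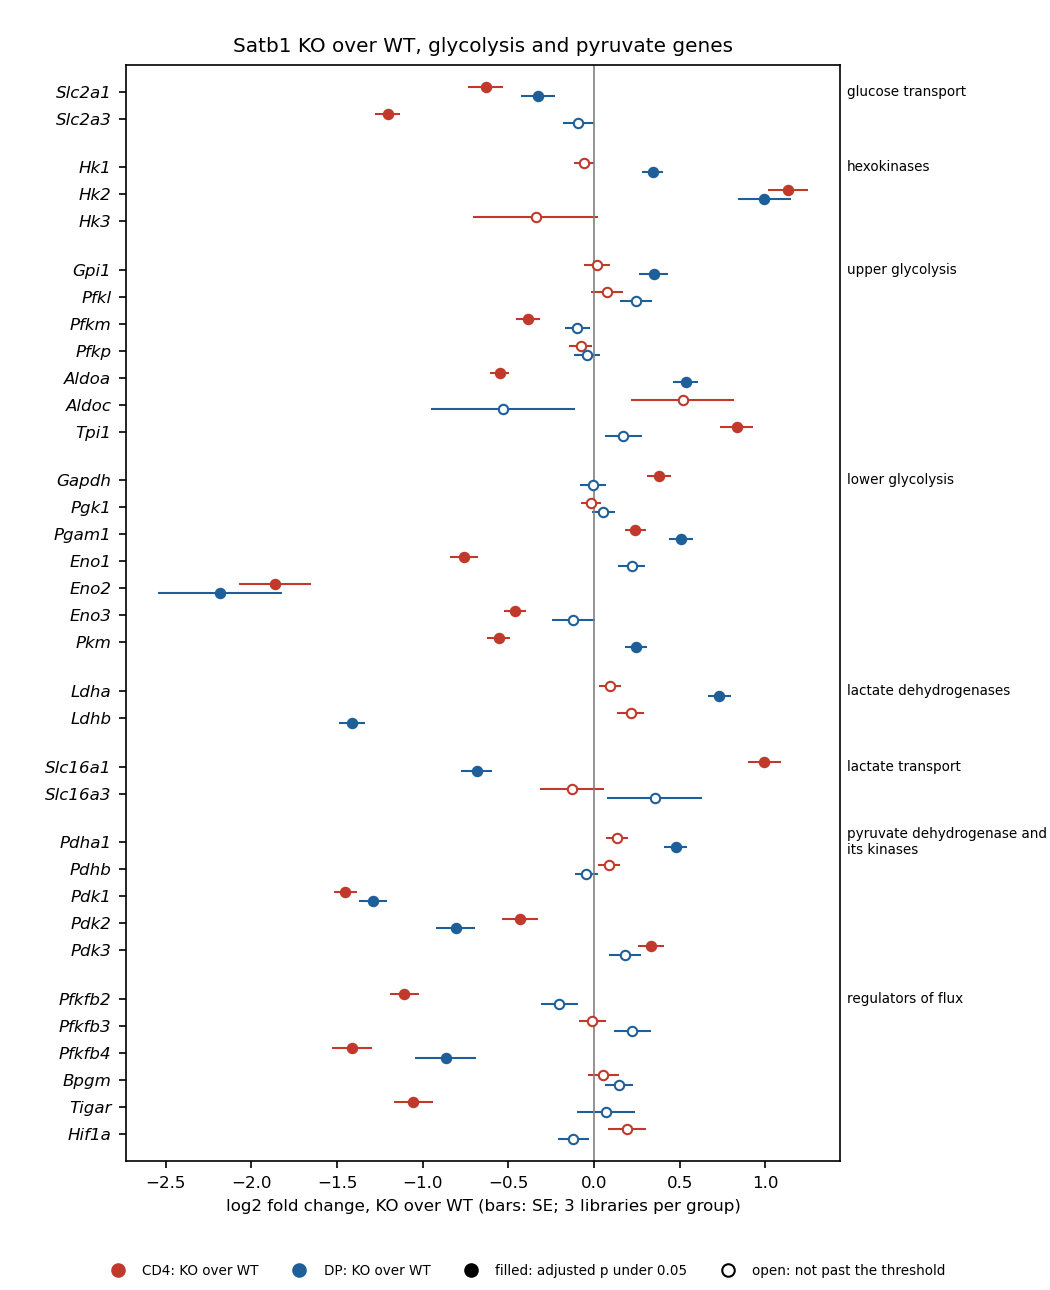
Log2 fold change of KO over WT for each of the 34 genes, in rows grouped by role, with CD4 in red and DP in blue; bars are standard errors, filled points passed adjusted p under 0.05 and open points did not. Pdk1, Eno2 and Pfkfb4 lie well to the left in both cell types and Hk2 to the right in both, while Aldoa, Pkm, Slc16a1 and Ldhb lie apart between the cell types.

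The genes fall into 4 patterns across the cell types. Of the 10 genes called in both, 7 moved the same way: Hk2 and Pgam1 were higher in KO, and Slc2a1, Eno2, Pdk1, Pdk2 and Pfkfb4 were lower. The other 3 moved in opposite directions, Aldoa and Pkm being lower in CD4 KO and higher in DP KO, and Slc16a1 higher in CD4 KO and lower in DP KO. A further 9 were called in CD4 and not in DP, and 5 in DP and not in CD4. Whether the effect differed was tested as an interaction over all 12 libraries, in which the log2 effect of the KO in DP is subtracted from its effect in CD4. It called 4 of 34 members higher and 11 lower, against 14.4% and 13.4% of all tested genes, and these were all 3 of the opposite genes, 7 of the 9 called in CD4, 4 of the 5 called in DP, and Pgam1 among the 7 that moved the same way. The interaction calls of Pgam1 and Pfkm were near the threshold and were lost in 5 and 7 of the 12 single-library omissions.

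Several properties of the libraries moved with the groups and stand beside all that follows. The 28 cell cycle genes of a list were all higher in CD4 KO (median log2 fold change 1.47) and summed to 5031, 4608 and 5532 CPM in CD4 KO against 2151, 1814 and 2457 CPM in CD4 WT. In DP, 5 of the 28 were lower in KO and none higher, and the sums overlapped, at 6607, 5241 and 7715 CPM in DP KO and 6926, 7946 and 7817 CPM in DP WT. The 10 DP stage markers, among them the recombinase genes Rag1 and Rag2, summed to between 2925 and 3515 CPM in CD4 KO and between 1538 and 1985 CPM in CD4 WT. In DP their sums lay between 7936 and 8179 CPM in DP KO and between 13221 and 14411 CPM in DP WT. The 9 CD4 stage markers summed to between 1854 and 2014 CPM in CD4 KO and between 3454 and 3645 CPM in CD4 WT. In DP they summed to between 1331 and 1411 CPM in DP KO and between 1700.4 and 1767 CPM in DP WT. Of these 9 genes, 6 were lower and none higher in CD4 KO, while in DP KO 2 were higher and 2 lower. Cd4 belongs to both stage lists. The part of these lists, and of the T lineage markers, in the members' values was not tested, and in sorted bulk samples fewer cells of a type and less RNA per cell cannot be told apart. Of other cell types, 10 myeloid markers summed to at most 51.3 CPM, 6 B cell markers to at most 30.1 CPM and 8 erythroid markers to between 23.8 and 332 CPM. The B cell sums lay between 20.1 and 30.1 CPM in CD4 KO and between 6.27 and 17.3 CPM in CD4 WT. These did not overlap, and 1 of 6 genes was higher. In DP the B cell sums overlapped, at 20.9 to 26.2 CPM in DP KO and 16.4 to 21.2 CPM in DP WT, with 1 gene higher and 1 lower. The erythroid sums ranged over each group, with no erythroid marker called in either KO comparison. The 6 gamma-delta and NK cell markers summed to between 12.1 and 19.0 CPM in CD4 KO and between 49.999 and 65.3 CPM in CD4 WT, with 3 of 4 tested genes lower. In DP they summed to between 6.28 and 8.65 CPM in DP KO and between 3.19 and 3.99 CPM in DP WT, with 2 of 4 higher. Trdc was at 0 in all 4 groups. The 8 markers of stroma and epithelium summed to between 168.8 and 187 CPM in CD4 KO and between 194 and 215 CPM in CD4 WT, with none of 4 tested genes called. In DP they summed to between 169 and 191 CPM in DP KO and between 146 and 150.4 CPM in DP WT, with 1 of 3 higher and 1 lower. The sums of the gamma-delta and NK list and of the stroma list overlapped between KO and WT in neither cell type. The part of these lists, and of the B cell markers, in the members' values was not tested.

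The mix of lactate dehydrogenase transcripts changed in DP thymocytes. LDHB is the subunit known for tetramers that favour turning lactate into pyruvate, and LDHA is the subunit of the pyruvate-reducing form. In DP thymocytes Ldhb was at 138, 152 and 157 CPM in KO against 417, 405 and 375 CPM in WT, a fall with no overlap (log2 fold change -1.41, SE 0.076, adjusted p = 1.68e-06). Ldha was at 579, 591 and 570.4 CPM in DP KO against 365, 362 and 329.8 CPM in DP WT, higher in every KO library (log2 fold change 0.73, SE 0.068, adjusted p = 5.01e-05). In CD4 thymocytes neither gene passed the test. Ldhb was at 122, 113 and 127 CPM in CD4 KO and 109.8, 108 and 94.4 CPM in CD4 WT, groups that did not overlap (log2 fold change 0.21, SE 0.078, adjusted p = 0.0555; adjusted p = 0.0435 with the replicate number as a block). Ldha was at 562, 580.0 and 559.6 CPM in CD4 KO and 536, 504 and 558 CPM in CD4 WT, groups that lay close but did not overlap (log2 fold change 0.093, SE 0.066, adjusted p = 0.306). The KO effect differed between the cell types for both genes, by 1.64 (SE 0.11, adjusted p = 4.18e-07) for Ldhb and by -0.63 (SE 0.086, adjusted p = 0.000122) for Ldha on the log2 scale.

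Taken as a ratio within each library, Ldhb had 0.217, 0.195 and 0.228 reads per Ldha read in CD4 KO, 0.205, 0.215 and 0.169 in CD4 WT, 0.238, 0.257 and 0.276 in DP KO and 1.14, 1.12 and 1.14 in DP WT. The DP WT libraries stood alone, and the DP KO ratios lay just above those of both CD4 groups. Per kilobase of the length in the deposited table, Ldhb in DP WT (306 CPM per kilobase) was above Ldha (65.9), also with the median length of the annotated transcripts (306 against 199). In both CD4 groups Ldha was the higher under both lengths, and in DP KO the order depended on the length used.

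**Figure D2:**
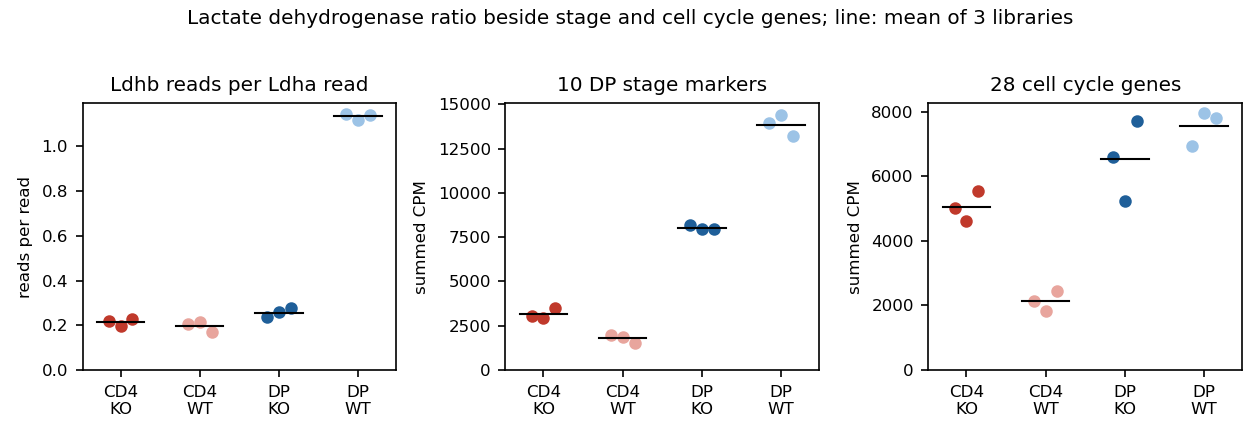
Each point is 1 library, in the order CD4 KO, CD4 WT, DP KO and DP WT, with a line at the mean of 3. The left panel shows Ldhb reads per Ldha read, between 1.12 and 1.14 in the 3 DP WT libraries and at most 0.276 in the other 9; the middle and right panels show the summed CPM of the DP stage markers and of the cell cycle genes in the same libraries.

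Lactate transport followed another course. Slc16a1 encodes MCT1, the widely expressed lactate and pyruvate transporter. It was at 111, 97.3 and 107 CPM in CD4 KO against 47.99, 50.4 and 60.3 CPM in CD4 WT, higher in every KO library (log2 fold change 0.99, SE 0.095, adjusted p = 4.13e-05). In DP it was at 114, 98.8 and 118 CPM in KO against 164, 195 and 177 CPM in WT, lower in every KO library (log2 fold change -0.68, SE 0.092, adjusted p = 0.000504). The 2 KO groups thus lay at similar levels, between those of the 2 WT groups, and the interaction was 1.69 (SE 0.14, adjusted p = 2e-06). Slc16a3, which encodes the exporter MCT4, was low everywhere and passed neither KO test, with means of 4.07 ± 0.817 CPM in CD4 KO and 4.45 ± 0.367 CPM in CD4 WT, and of 1.06 ± 0.0219 CPM in DP KO and 0.839 ± 0.11 CPM in DP WT (SD, n = 3 each). Its annotated exons share 374 bases with Csnk1d on the other strand, a gene at 259.6 CPM on average, and the sources used here do not give the strand setting of the counting.

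The promoters of Ldha, Ldhb and Slc16a1, whose KO effects differed between the cell types, are shown beside those of Pdk1 and Hk2, which moved the same way in both. Each run is the 250 bases before a RefSeq start of the gene (assembly GRCm38.p6), the more upstream of 2 starts for Ldha and Pdk1. Capitals mark every ACGTG or its reverse complement CACGT, found in E-boxes bound by MYC and in hypoxia response elements. The core of a hypoxia response element can also be GCGTG, which is not marked.
Ldha (chr7:46845554-46845803, plus strand): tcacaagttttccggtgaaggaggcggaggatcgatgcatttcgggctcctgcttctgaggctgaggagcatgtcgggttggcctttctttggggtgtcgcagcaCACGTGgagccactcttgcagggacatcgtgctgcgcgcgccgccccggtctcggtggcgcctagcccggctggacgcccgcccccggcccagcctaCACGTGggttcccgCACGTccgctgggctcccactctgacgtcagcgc
Ldhb (chr6:142507958-142508207, minus strand): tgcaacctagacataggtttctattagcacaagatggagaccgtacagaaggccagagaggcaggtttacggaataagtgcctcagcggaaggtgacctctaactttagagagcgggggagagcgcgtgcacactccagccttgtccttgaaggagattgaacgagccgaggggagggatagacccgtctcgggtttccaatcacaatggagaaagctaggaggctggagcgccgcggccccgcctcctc
Slc16a1 (chr3:104638414-104638663, plus strand): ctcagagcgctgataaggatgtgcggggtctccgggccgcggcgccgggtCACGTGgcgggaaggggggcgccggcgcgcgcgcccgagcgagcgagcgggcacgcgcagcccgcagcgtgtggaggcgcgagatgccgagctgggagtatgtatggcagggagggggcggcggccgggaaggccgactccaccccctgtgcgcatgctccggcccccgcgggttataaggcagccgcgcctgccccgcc
Pdk1 (chr2:71872974-71873223, plus strand): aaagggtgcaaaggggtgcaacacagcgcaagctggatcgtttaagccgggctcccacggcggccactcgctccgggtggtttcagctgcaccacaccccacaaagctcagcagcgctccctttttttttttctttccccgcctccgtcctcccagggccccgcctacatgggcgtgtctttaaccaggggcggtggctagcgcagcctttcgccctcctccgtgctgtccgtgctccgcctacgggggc
Hk2 (chr6:82774455-82774704, minus strand): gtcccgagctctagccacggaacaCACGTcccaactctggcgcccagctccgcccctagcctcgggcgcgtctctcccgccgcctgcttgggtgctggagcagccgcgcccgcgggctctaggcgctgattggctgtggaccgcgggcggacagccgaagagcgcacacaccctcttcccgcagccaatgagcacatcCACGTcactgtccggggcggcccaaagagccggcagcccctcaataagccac
The Ldha window shown held 2 copies of the full palindrome CACGTG and the Slc16a1 window 1, while Ldhb and Pdk1 held no ACGTG on either strand. On either strand GCGTG occurred 1 time in each of the Ldhb and Pdk1 windows shown and 2 times in that of Slc16a1. The Ldha and Hk2 windows shown held no GCGTG. The window of the second start of Ldha (chr7:46846832-46847081), and that of Pdk1, held neither CACGTG nor ACGTG. Of the 33 members with a promoter in the RefSeq table, 17 held ACGTG in the window of at least 1 start, against 18.5% of 27025 genes, and 7 held CACGTG, against 6.86%. The longer match contains the shorter, so the counts overlap. GCGTG was held by 20 of the 33, against 30.9% of genes. GGGCGG, a string that is part of neither element, was held by 21 of the 33, against 35.4% of genes. The base content of the windows and the number of starts per gene were not matched, and their part in these shares was not tested. Among the called members with a promoter in the table, ACGTG was found in genes of each direction: 5 of 8 higher and 3 of 7 lower in DP KO, and 4 of 6 higher and 6 of 12 lower in CD4 KO. Each match is a string of letters in this window and says nothing of binding.

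Among the members that steer pyruvate into mitochondria, Pdk1 had the largest change in each cell type. PDK1 phosphorylates and switches off the pyruvate dehydrogenase complex. Pdk1 was at 86.99, 87.2 and 80.8 CPM in CD4 KO against 219.8, 242 and 237 CPM in CD4 WT (log2 fold change -1.45, SE 0.067, adjusted p = 1.21e-06), and at 92.98, 103 and 86.6 CPM in DP KO against 225, 231 and 241 CPM in DP WT (log2 fold change -1.29, SE 0.080, adjusted p = 4.04e-06). The 2 WT groups overlapped and every KO library lay below every WT library. A difference between the effects was not detected (log2 difference of effects -0.15, SE 0.10, adjusted p = 0.306). Pdk2, a second kinase of the complex, was at 11.1, 10.6 and 9.999 CPM in CD4 KO against 15.1, 13.7 and 14.01 CPM in CD4 WT (log2 fold change -0.43, SE 0.10, adjusted p = 0.00892). In DP it was at 12.1, 12.3 and 9.95 CPM in KO against 21.1, 19.5 and 20.02 CPM in WT, again with no overlap (log2 fold change -0.81, SE 0.11, adjusted p = 0.000672).

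Pdk3, the X-linked kinase gene, went the other way. It was higher in CD4 KO, at 34.9 ± 1.01 CPM against 27.8 ± 1.18 CPM in CD4 WT (log2 fold change 0.33, SE 0.075, adjusted p = 0.00661), and did not pass in DP, at 33.2 ± 2.51 CPM in DP KO and 29.5 ± 1.76 CPM in DP WT. Per kilobase of table length, Pdk1 exceeded Pdk3 in CD4 WT (35.9 against 13.5 CPM per kilobase) and in DP WT (35.8 against 14.4). In both KO groups the 2 genes lay close together. Pdk1 was at 13.1 and Pdk3 at 16.99 in CD4 KO, and they were at 14.5 and 16.2 in DP KO. With the median length of the annotated transcripts the order in DP KO changed, to 18.2 for Pdk1 and 15.7 for Pdk3. Pdk2 was the lowest of the 3 in every group. Pdha1, the X-linked gene of the catalytic alpha subunit, was at 194, 215 and 215 CPM in DP KO against 151, 149.7 and 149.9 CPM in DP WT (log2 fold change 0.48, SE 0.066, adjusted p = 0.000602), a call that also held with DP WT replicate 3 alone, the 1 DP WT library with Xist. In CD4, Pdha1 averaged 169 ± 10.8 CPM in CD4 KO and 154 ± 2.36 CPM in CD4 WT and did not pass. Pdhb, the gene of the beta subunit, passed in neither cell type, with means between 105 and 135 CPM in the 4 groups.

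The transporter and hexokinase genes moved in different directions. Slc2a3 encodes GLUT3, a high-affinity glucose transporter. It was at 34.8, 31.6 and 35.6 CPM in CD4 KO against 76.7, 83.03 and 75.5 CPM in CD4 WT, lower in every KO library (log2 fold change -1.21, SE 0.073, adjusted p = 3.96e-06). In DP it was at 21.3, 18.7 and 20.9 CPM in DP KO and 21.7, 21.4 and 22.3 CPM in DP WT, groups that lay close but did not overlap, and it did not pass (log2 fold change -0.091, SE 0.093, adjusted p = 0.504). The interaction was -1.10 (SE 0.11, adjusted p = 7.69e-06). Slc2a1, the gene of the basal transporter GLUT1, was lower in both, at 25.4 ± 2.48 CPM in CD4 KO against 39.4 ± 3.87 CPM in CD4 WT (log2 fold change -0.63, SE 0.10, adjusted p = 0.00106) and at 16.7 ± 1.63 CPM in DP KO against 21.2 ± 0.602 CPM in DP WT (log2 fold change -0.33, SE 0.10, adjusted p = 0.0343). The DP call for Slc2a1 was lost on leaving out any 1 DP library other than KO replicate 3, with adjusted p between 0.057 and 0.164, and without a low-count filter (0.122).

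Hexokinase traps glucose in the cell, and Hk2 is its inducible form. Hk2 was at 11.6, 12.3 and 11.8 CPM in CD4 KO against 5.47, 5.22 and 5.63 CPM in CD4 WT (log2 fold change 1.13, SE 0.11, adjusted p = 5.88e-05), and at 8.82, 9.07 and 8.61 CPM in DP KO against 3.99, 4.17 and 5.35 CPM in DP WT (log2 fold change 0.99, SE 0.15, adjusted p = 0.00118). Both KO groups lay above both WT groups, and the effects were not shown to differ (log2 difference of effects 0.15, SE 0.17, adjusted p = 0.585). The gene remained a small part of the family: Hk1, the housekeeping form, had 35.05 CPM per kilobase in CD4 KO where Hk2 had 2.10, and 38.3 in DP KO where Hk2 had 1.56. Hk1 was higher in DP KO, at 205 ± 4.82 CPM against 163 ± 1.17 CPM in DP WT (log2 fold change 0.34, SE 0.062, adjusted p = 0.00277), and did not pass in CD4, at 187 ± 6.01 CPM in CD4 KO and 195 ± 7.02 CPM in CD4 WT. Hk3 stayed under 1 CPM in all libraries. The table's Hk2 row also counts exons annotated on an alternative sequence, as do the Eno1 and Eno3 rows, so their levels are less certain than those of the other members. For these 3 genes the values per kilobase use the exons on the chromosome alone. That length is 5659 bases for Hk2, 2005 for Eno1 and 5500 for Eno3, where the deposited table gives 7972, 4010 and 7104.

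Of the 7 genes of upper glycolysis, 1 was higher and 2 lower in CD4 KO, and 2 were higher in DP KO. Aldoa, the main aldolase of muscle and blood cells, was at 172, 176 and 166 CPM in CD4 KO against 254, 253 and 247 CPM in CD4 WT (log2 fold change -0.55, SE 0.058, adjusted p = 7.37e-05). In DP it was at 145, 145 and 137 CPM in KO against 105, 100.02 and 91.7 CPM in WT, the opposite direction (log2 fold change 0.53, SE 0.073, adjusted p = 0.00056). The 4 groups were thus ordered CD4 WT, CD4 KO, DP KO, DP WT with no overlap between neighbours, and the interaction was -1.08 (SE 0.086, adjusted p = 1.59e-06). Tpi1, the triose phosphate isomerase gene, was higher in CD4 KO at 83.6 ± 8.36 CPM against 46.97 ± 4.57 CPM in CD4 WT (log2 fold change 0.83, SE 0.10, adjusted p = 0.000135), and did not pass in DP, at 75.6 ± 5.09 CPM in DP KO and 67.5 ± 9.85 CPM in DP WT. Gpi1, the glucose phosphate isomerase gene, was higher in DP KO at 403 ± 25.5 CPM against 319 ± 26.9 CPM in DP WT (log2 fold change 0.35, SE 0.083, adjusted p = 0.0113), and stood at 378 ± 28.1 CPM in CD4 KO and 374 ± 21.4 CPM in CD4 WT.

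The 3 phosphofructokinase genes, which encode the subunits of the committing step, had 1 call between them in the KO comparisons. Pfkm was lower in CD4 KO, at 38.98 ± 2.03 CPM against 50.95 ± 2.41 CPM in CD4 WT (log2 fold change -0.38, SE 0.072, adjusted p = 0.0024). Pfkl and Pfkp passed in neither cell type, although Pfkl passed in DP with the replicate block (log2 fold change 0.25, adjusted p = 0.0417). Pfkm shares 1061 exon bases with Senp1 and Pfkp shares 786 with Pitrm1, both on the other strand. Their order per kilobase changed with the length used and is not given. Aldoc, the aldolase of brain, averaged at most 1.08 CPM in any group and passed neither KO test.

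Lower glycolysis had 2 genes higher and 4 lower in CD4 KO, of 7, and 2 higher and 1 lower in DP KO. Eno1, the main enolase gene outside nerve and muscle, was at 504, 479 and 423 CPM in CD4 KO against 831, 792 and 762 CPM in CD4 WT (log2 fold change -0.76, SE 0.081, adjusted p = 8e-05). In DP it was at 391, 411 and 358 CPM in DP KO and 343, 350.4 and 309 CPM in DP WT, with no overlap, and did not pass (log2 fold change 0.22, SE 0.080, adjusted p = 0.0647), though it did with the replicate block (adjusted p = 0.0415). The interaction was -0.97 (SE 0.11, adjusted p = 3.2e-05). Eno2, the neuronal enolase gene, was scarce and fell in both: it was at 3.65, 2.29 and 2.36 CPM in CD4 KO against 10.4, 11.2 and 8.61 CPM in CD4 WT (log2 fold change -1.86, SE 0.21, adjusted p = 0.000108), and at 0.46, 0.403 and 0.208 CPM in DP KO against 1.44, 2.03 and 1.52 CPM in DP WT (log2 fold change -2.18, SE 0.36, adjusted p = 0.00168). Eno3, the muscle form, was at 85.7, 91.1 and 81.6 CPM in CD4 KO against 115, 120.2 and 120.4 CPM in CD4 WT (log2 fold change -0.46, SE 0.063, adjusted p = 0.000383), and the DP groups overlapped at 57.03, 67.1 and 52.8 CPM in DP KO and 56.01, 62.4 and 75.9 CPM in DP WT. Eno3 shares 1559 exon bases with Pfn1 on the other strand, which averaged 773 CPM, so its reads cannot be told apart from those of Pfn1 there. Per kilobase the order Eno1, Eno3, Eno2 held in every group under both lengths.

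Pkm, the pyruvate kinase gene that closes glycolysis, had the largest mean CPM of the members' rows in every group. It was at 692, 678 and 635 CPM in CD4 KO against 1013, 988 and 947 CPM in CD4 WT (log2 fold change -0.56, SE 0.067, adjusted p = 0.000177). In DP it was at 598, 596 and 589 CPM in KO against 524, 514 and 480.2 CPM in WT (log2 fold change 0.24, SE 0.065, adjusted p = 0.0186), a smaller shift in the opposite direction, and the interaction was -0.79 (SE 0.084, adjusted p = 1.43e-05). The DP call was lost with upper-quartile normalization (adjusted p = 0.0542), without DP KO replicate 1 (0.0613), without DP WT replicate 2 (0.0915) and without DP WT replicate 3 (0.062). Its opposite direction in DP rests on a call near the threshold. Counts per gene do not separate the M1 and M2 transcripts of Pkm. Pgam1, the phosphoglycerate mutase gene, was at 121, 121 and 113 CPM in CD4 KO against 103, 96.8 and 101 CPM in CD4 WT (log2 fold change 0.24, SE 0.061, adjusted p = 0.0114), and at 99.8, 99.1 and 92.9 CPM in DP KO against 71.8, 69.5 and 65.4 CPM in DP WT (log2 fold change 0.51, SE 0.071, adjusted p = 0.000637). Leaving out CD4 WT replicate 2 ended its CD4 call (adjusted p = 0.0538). Pgk1, the X-linked phosphoglycerate kinase gene, was called in no comparison, with group means between 209 and 216 CPM.

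Near-identical copies in the genome held part of these families' reads. Gapdh, the glyceraldehyde phosphate dehydrogenase gene, has 45 annotated copies in the tables whose transcripts matched it at 97% identity or more over at least 150 bases, and its own row held between 2.91% and 3.34% of the counts of the family. Its level of 159.7 ± 4.61 CPM in CD4 KO against 123 ± 9.18 CPM in CD4 WT (log2 fold change 0.38, SE 0.070, adjusted p = 0.00208) is therefore not its abundance. Summed over the family, a choice made after seeing the data, the log2 fold change was 0.48 in CD4 (adjusted p = 0.000747) and -0.0048 in DP (adjusted p = 0.969). The rows of Pgk1, Eno1 and Pgam1 held between 80.0% and 83.1%, between 80.7% and 84.0%, and between 67.2% and 69.7% of their families' counts, and summing left their calls in CD4 as they were. In DP, Eno1 with its 2 copies passed (log2 fold change 0.22, adjusted p = 0.0439).

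Among the 6 regulators, none was higher in KO, 3 were lower in CD4 KO and 1 was lower in DP KO. The PFKFB enzymes set the level of a fructose bisphosphate that activates phosphofructokinase and is not the one phosphofructokinase makes. Pfkfb2 was at 27.6, 27.5 and 31.5 CPM in CD4 KO against 58.8, 67.2 and 60.5 CPM in CD4 WT (log2 fold change -1.11, SE 0.085, adjusted p = 1.27e-05), while the DP groups overlapped, at 30.2, 29.9 and 26.3 CPM in DP KO and 32.1, 30.2 and 38.1 CPM in DP WT, and the effects differed by -0.89 (SE 0.14, adjusted p = 0.000341). Pfkfb4 fell in both, at 5.85, 5.40 and 5.95 CPM in CD4 KO against 16.3, 15.7 and 13.8 CPM in CD4 WT (log2 fold change -1.41, SE 0.12, adjusted p = 1.92e-05) and 4.75, 6.05 and 4.02 CPM in DP KO against 10.1, 8.94 and 8.12 CPM in DP WT (log2 fold change -0.87, SE 0.18, adjusted p = 0.0054). Pfkfb3, the form with the highest level per kilobase of the 3 in every group, was called in no comparison, with means of 74.9 ± 7.46 CPM in CD4 KO and 75.4 ± 3.64 CPM in CD4 WT. Tigar encodes a phosphatase that lowers the same activator. It was at 7.49, 8.79 and 7.50 CPM in CD4 KO against 16.9, 15.7 and 16.99 CPM in CD4 WT (log2 fold change -1.05, SE 0.11, adjusted p = 8.39e-05), and at 4.48, 5.003 and 4.13 CPM in DP KO and 4.11, 4.07 and 4.95 CPM in DP WT, where it did not pass, with an interaction of -1.12 (SE 0.18, adjusted p = 0.000369). Bpgm, the bisphosphoglycerate mutase gene, and Hif1a, the gene of the oxygen-regulated transcription factor, passed neither KO test, with means between 36.4 and 52.3 CPM and between 154 and 176 CPM.

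**Figure D3:**
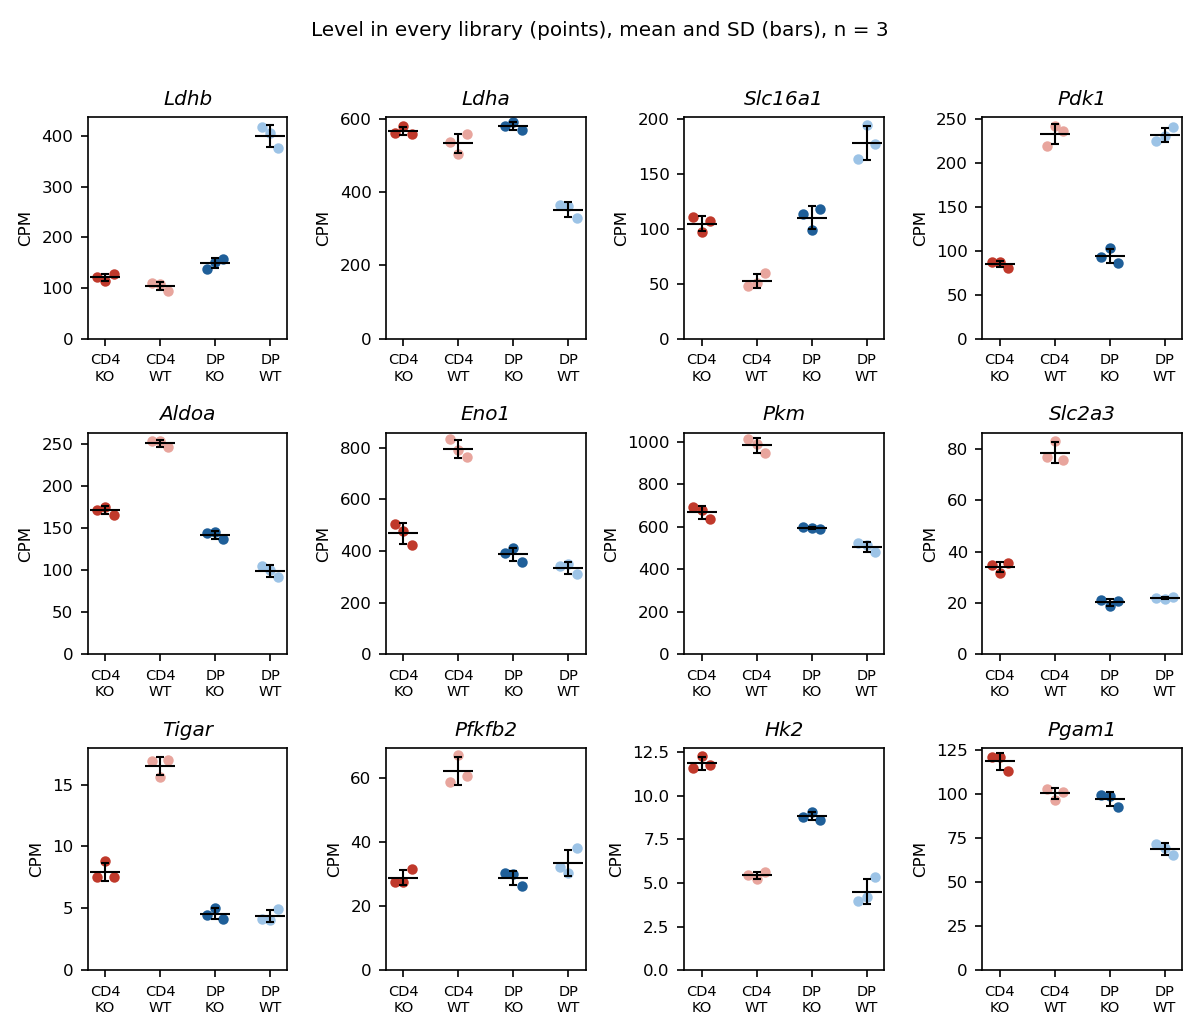
CPM of 12 genes in every library, in the order CD4 KO, CD4 WT, DP KO and DP WT, each panel with its own axis from 0; points are libraries and black bars the mean and SD of 3. Aldoa, Eno1, Pkm, Slc2a3, Tigar and Pfkfb2 stand highest in CD4 WT, Ldhb and Slc16a1 stand highest in DP WT, Pdk1 is high in both WT groups, and Hk2 is high in both KO groups.

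The same libraries show how the members differ between the 2 stages in WT and in KO. Satb1 transcript was left in both KO groups, at a mean of 1498 CPM in CD4 KO and 2608 CPM in DP KO. In WT, 18 members were higher in CD4 than in DP and 7 lower, of 34, against 28.0% and 27.1% of all tested genes. Slc2a3, Aldoa and Eno1 were among the higher, with log2 fold changes of CD4 over DP of 1.84 (SE 0.075, adjusted p = 2.76e-08), 1.34 (SE 0.069, adjusted p = 1.19e-07) and 1.25 (SE 0.072, adjusted p = 2.83e-07). Ldhb and Slc16a1 were lower, with log2 fold changes of -1.94 (SE 0.081, adjusted p = 3.25e-08) and -1.76 (SE 0.10, adjusted p = 2.19e-07). These are the libraries whose values are given above, with no overlap between CD4 WT and DP WT for any of the 5 genes.

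In KO, 12 members were higher in CD4 than in DP and 5 lower, of 34, against 13.9% and 7.82% of all tested genes. Slc16a3, Eno2, Slc2a3 and Eno3 had the smallest adjusted p among the higher. Slc16a3 was at 4.98, 3.41 and 3.82 CPM in CD4 KO against 1.05, 1.04 and 1.09 CPM in DP KO (log2 fold change 1.96, SE 0.21, adjusted p = 0.000434), and at 4.87, 4.25 and 4.22 CPM in CD4 WT against 0.913, 0.713 and 0.892 CPM in DP WT (log2 fold change 2.41, SE 0.22, adjusted p = 6.93e-06). Eno2 and Eno3 were higher in CD4 KO than in DP KO by 2.94 (SE 0.35, adjusted p = 0.000695) and 0.57 (SE 0.092, adjusted p = 0.00337). Of the 12 higher in KO, 10 were also higher in WT, which is 83.3% of the KO list and 55.6% of the WT list, and 3 of the 5 lower in KO, Ldhb, Pdhb and Bpgm, were also lower in WT, which is 60.0% and 42.9%. No member was called in opposite directions in KO and WT. Leaving out CD4 KO replicate 1 or 2 brought the number higher in KO down to 7 or 6, and the number lower ranged from 1 to 4 over the single-library omissions.

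By position, the members lie on 15 chromosomes, with 8 of them on chromosome 6. Eno2 (chr6:124760053-124769673, mm10), Tpi1 (chr6:124810586-124814158) and Gapdh (chr6:125161852-125166467) are neighbours among the members there, 40.9 and 347.7 kb apart. In CD4 KO Eno2 was lower while Tpi1 and the Gapdh row were higher. Because the Gapdh row held a small share of its family's counts, its direction is uncertain as that of this position.

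The interaction given above is also the test of whether the step from DP to CD4 differed between KO and WT, since the same 4 group means enter it. For Slc2a3 the step was 0.76 in KO and 1.84 in WT, for Aldoa 0.29 and 1.34, for Eno1 0.30 and 1.25, and for Tigar 0.82 and 1.92, on the log2 scale. For Pkm it was 0.19 in KO, where it did not pass (adjusted p = 0.0652; 0.00788 with the replicate block), and 0.95 in WT. Ldhb had -0.28 in KO and -1.94 in WT, and Slc16a1 had -0.052 in KO, which did not pass, and -1.76 in WT. The KO steps of Aldoa, Eno1 and Ldhb lost their calls without CD4 KO replicate 1 or 2, among other omissions, with adjusted p of up to 0.0631, 0.171 and 0.106. The cell cycle list moved with this step too: 7 of its 28 genes were lower in CD4 than in DP in KO and all 28 in WT, and its part in the members' values was not tested.

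**Figure D4:**
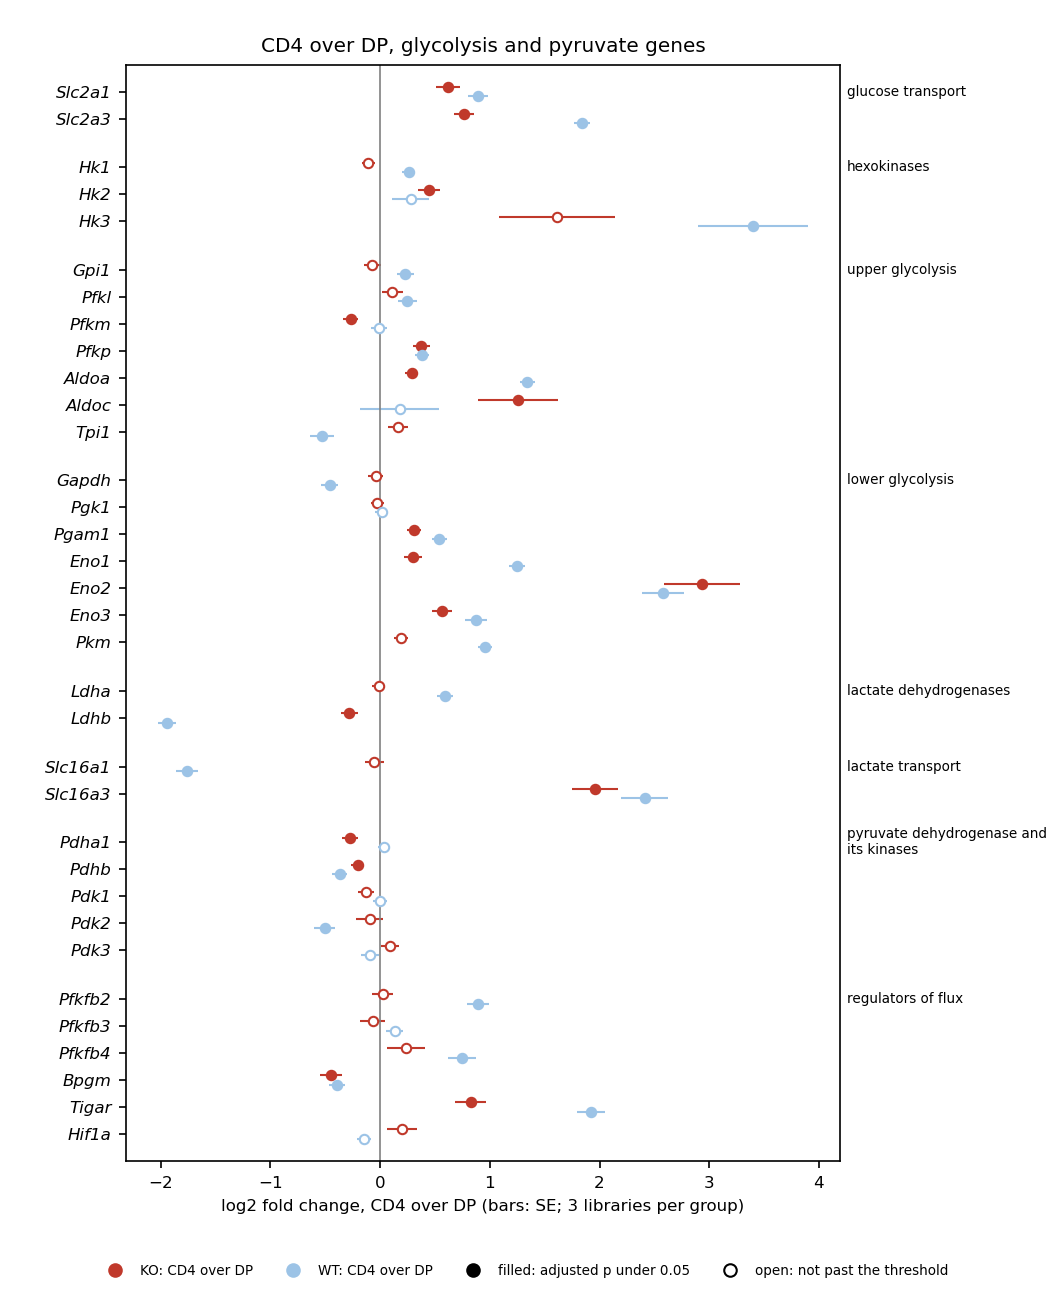
Log2 fold change of CD4 over DP for each of the 34 genes, with the KO libraries in red and the WT libraries in light blue; bars are standard errors, filled points passed adjusted p under 0.05. Red points lie nearer 0 than light blue ones for Slc2a3, Aldoa, Eno1, Pkm, Ldhb, Slc16a1 and Tigar, and the 2 colours lie close together for Pfkp and Pgk1.

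Neighbouring pathways were read from lists of genes chosen by function. Over all tested genes, 20.9% were called higher and 18.6% lower in CD4 KO, and 16.7% and 14.1% in DP KO. Of 38 other genes of glycolysis and pyruvate use, 28 were tested in each KO comparison, with 6 higher and 3 lower in CD4 KO and 9 higher and 2 lower in DP KO. Dlat, a core subunit gene of the pyruvate dehydrogenase complex, was higher in CD4 KO (log2 fold change 0.50, SE 0.064, adjusted p = 0.000258). Pck2, the mitochondrial phosphoenolpyruvate carboxykinase gene, was at 11.96 ± 2.56 CPM in DP KO against 2.15 ± 0.28 CPM in DP WT (log2 fold change 2.48, SE 0.20, adjusted p = 2.14e-05). Adpgk, the gene of the ADP-dependent glucokinase, was higher in DP KO at 58.8 ± 3.17 CPM against 27.6 ± 3.33 CPM in DP WT, and Ldhd, the D-lactate dehydrogenase gene, was lower at 0.858 ± 0.163 against 3.74 ± 0.369 CPM.

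The pentose phosphate list of 10 genes had 6 higher and none lower in CD4 KO, and 3 higher and 3 lower in DP KO. Tkt, the transketolase gene that links it to glycolysis, was higher in both (0.74 in CD4 and 0.45 in DP, log2). Of 19 genes of the tricarboxylic acid cycle and its aminotransferases, 8 were higher and 1 lower in CD4 KO, and 5 higher and 2 lower in DP KO. Got1, the cytosolic aspartate aminotransferase gene, was lower in CD4 KO (log2 fold change -0.86, SE 0.089, adjusted p = 6.79e-05) and higher in DP KO (log2 fold change 0.45, SE 0.091, adjusted p = 0.00474).

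Single genes upstream of the pathway changed, while the count of their list in CD4 lay near that of all genes. Of 23 genes of MYC, MLX and nutrient signalling, 6 were higher and 4 lower in CD4 KO, and 8 higher and 3 lower in DP KO. Myc, a known activator of glycolytic genes, was at 119, 146 and 111 CPM in CD4 KO against 85.95, 79.7 and 73.2 CPM in CD4 WT (log2 fold change 0.65, SE 0.11, adjusted p = 0.00101), and at 138, 151 and 113 CPM in DP KO against 32.2, 30.4 and 37.5 CPM in DP WT (log2 fold change 2.02, SE 0.12, adjusted p = 3.51e-06). Mycn was at 15.2, 19.97 and 26.4 CPM in CD4 KO against 1.35, 1.01 and 0.871 CPM in CD4 WT, and at 23.1, 28.6 and 34.3 CPM in DP KO against 8.17, 7.45 and 8.87 CPM in DP WT, higher in every KO library of both cell types. Txnip, whose product restrains glucose uptake, was lower in CD4 KO (log2 fold change -0.85, SE 0.14, adjusted p = 0.00133). Of 18 tested genes of oxygen sensing and HIF targets outside glycolysis, 4 were higher and 6 lower in CD4 KO, and 2 higher and 6 lower in DP KO. Ndrg1 and P4ha1 were lower in CD4 KO (-1.62 and -0.82, log2) and Egln3 higher (1.66), and in DP KO Ero1a was higher (1.17) and Ddit4 and Kdm3a lower (-0.90 and -0.47).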

How the data were processed

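Poly(A) RNA of sorted thymocytes was sequenced as paired reads, per the labels. The deposited files hold raw counts, whole reads per gene that the authors tallied, in 1 table for CD4 and 1 for DP with 6 libraries each. Every per-library column was used. The submitters' processing notes name mm10, Subread 1.0.1, DESeq2 and R without roles; these sources do not state the aligner or strand setting. Libraries were grouped by title. The descriptions of the CD4 samples name their columns as DP columns of the CD4 table, while the titles and the column headers say CD4.

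Counts were tested with edgeR 4.0.16 in R 4.3.3 (quasi-likelihood, TMM, default low-count filter, Benjamini-Hochberg adjustment over all tested genes). Each comparison of 2 groups used their 6 libraries and the interaction all 12. SE is the log2 fold change over the square root of F. CPM uses TMM factors over all 12 libraries. The test was tried on simulated counts. Copies and annotated transcript lengths come from GENCODE M21, with the copies matched by blastn 2.17.0. Overlaps come from the exon positions deposited with the counts. Figures were drawn with matplotlib 3.10.9. Library pairs within a group differed by 15.2 to 50.8 times the sampling noise, as chi-square per degree of freedom.

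The members and lists were chosen with earlier results of these data known. Library values are given for up to 10 called members by adjusted p in each KO comparison, 8 in the interaction and 4 in each stage comparison, and up to 3 genes of each other list are named; other values are means.

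Same-numbered libraries carry the same labelled batch number, which the replicate block uses. Their deviations correlated at 0.149 to 0.401 between CD4 KO and CD4 WT, -0.037 to 0.203 between DP KO and DP WT, and 0.226 to 0.583 between CD4 and DP, over 13257 genes. Differently numbered libraries correlated at -0.316 to 0.228, -0.166 to 0.218 and -0.557 to 0.304 in the same order. Between KO and WT the ranges thus overlapped. Alternatives were DESeq2 1.42.0 size factors and Wald test, upper-quartile normalization, limma-voom (limma 3.58.1), no low-count filter, a filter at a mean of 10 reads, 1 model of the 12 libraries, the replicate block, each library left out, DP WT replicate 3 alone and, added after seeing the data, near-identical copies summed.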

Additional observations from a re-analysis of the deposited data

Results flagged for a closer look

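For 15 genes the KO effect differed between CD4 and DP thymocytes by the interaction test, given as the log2 effect in CD4 minus that in DP. Higher in CD4 were Ldhb 1.64 (SE 0.11, adjusted p = 4.18e-07), Slc16a1 1.69 (SE 0.14, adjusted p = 2e-06), Tpi1 0.67 (SE 0.16, adjusted p = 0.0059) and Gapdh 0.40 (SE 0.10, adjusted p = 0.0111). Lower in CD4 were Aldoa -1.08 (SE 0.086, adjusted p = 1.59e-06), Slc2a3 -1.10 (SE 0.11, adjusted p = 7.69e-06), Pkm -0.79 (SE 0.084, adjusted p = 1.43e-05), Eno1 -0.97 (SE 0.11, adjusted p = 3.2e-05), Ldha -0.63 (SE 0.086, adjusted p = 0.000122), Pfkfb2 -0.89 (SE 0.14, adjusted p = 0.000341), Tigar -1.12 (SE 0.18, adjusted p = 0.000369), Hk1 -0.39 (SE 0.076, adjusted p = 0.00172), Pdha1 -0.33 (SE 0.088, adjusted p = 0.0131), Pgam1 -0.25 (SE 0.085, adjusted p = 0.0389) and Pfkm -0.28 (SE 0.094, adjusted p = 0.0428). The calls of Pgam1 and Pfkm were also lost with upper-quartile normalization (adjusted p = 0.0673 and 0.0747), without a low-count filter (0.116 and 0.133) and without DP KO replicate 1 (0.066 and 0.0574), DP KO replicate 2 (0.0531 and 0.0741), CD4 KO replicate 3 (0.0569 and 0.0693) or CD4 WT replicate 1 (0.102 and 0.0996). Pgam1 was also lost without DP WT replicate 3 (0.0536), and Pfkm without DP WT replicate 2 (0.0598), CD4 KO replicate 1 (0.0569) or CD4 WT replicate 2 (0.0737). Each adjusted p is from edgeR's quasi-likelihood test over all tested genes. The effects of CD4 and DP had opposite signs and both passed for Aldoa, Pkm and Slc16a1. Over the same contrast all 28 cell cycle genes were higher, with a median of 1.66, and 9 of 10 DP stage markers were higher, and their part in these differences was not tested.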

How the results depend on the processing

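For genes called in the reported test or under an alternative, 1765 values were recomputed: 1642 kept direction and side of the threshold, 83 lost the call, 40 gained one and none of these changed sign. Of the members never called, 2 to 5 per comparison changed sign under some alternative. All alternatives were kept by 18 of 19 calls in CD4 (KO against WT), 9 of 15 in DP, 7 of 17 between stages in KO, 21 of 25 in WT, and 10 of 15 of the interaction.

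With DP WT replicate 3 alone, 5 members were higher and 4 lower in DP KO, and the interaction had 2 higher and 9 lower; the lone library is assumed to vary like the other group. DP lost Slc2a1, Hk1, Hk2, Eno2, Pkm and Pfkfb4 there, and the interaction lost Pfkm, Tpi1, Gapdh, Pgam1 and Pdha1. Upper-quartile normalization left 3 members lower in CD4 KO than in DP KO. Single-library omissions gave 5 to 7 higher and 13 lower in CD4 KO, 7 to 10 and 6 to 7 in DP KO, 6 to 11 and 1 to 4 between stages in KO, 16 to 18 and 7 in WT, and 4 to 5 and 9 to 15 for the interaction.

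The replicate block brought the counts higher and lower to 7 and 13 in CD4, 10 and 7 in DP, 15 and 5 between stages in KO, 18 and 7 in WT, and 6 and 12 for the interaction. It added Hk3 (adjusted p = 0.0233) and Hif1a (0.0116) between stages in KO, and Gpi1 (0.00863), Pdk2 (0.0365) and Hif1a (0.0484) to the interaction. Beside these and the values in the report it changed no other call. Of all genes it called 2976 lower between stages in KO, against 1323 without it. The cause was not tested. Depth limits Hk3, Aldoc, Eno2 and Slc16a3, which had few reads.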
